A study of Mus musculus with 39 samples.

Results

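The highest and the lowest dose of KAL-1, a botanical formulation mixed into a high fat diet, were compared in the epididymal fat of C57BL/6J mice. The comparison used 12 of the 39 arrays of the series: 1 array of mice given 75 µg (HF75) and 1 of mice given 5 µg (HF5) at each of weeks 3, 6, 9, 12, 15 and 18. Both groups ate the same high fat, high sucrose diet with 60% of calories from fat from weaning at 3 to 4 weeks of age, so every mouse compared here carried both the diet and some KAL-1. Each diet group held 30 animals, of which 5 were killed every 3 weeks. Neither the number of animals behind an array nor the amount of food or body weight to which a dose refers is given in the labels. The 2 arrays of a week were treated as a pair, and the 6 weekly pairs were the replicates. The errors given below are moderated standard errors, in which the fit drew each probe's spread toward that of all probes. They therefore describe a probe's own spread between weeks only in part, with animals, time and array together.

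Epididymal fat is a visceral white fat depot that lies against the epididymis and testis. Its adipocytes make and store triglyceride, and macrophages, endothelial cells, progenitor cells and a covering mesothelium share the tissue. The neighbouring epididymis matures and stores sperm. Sperm heads are packed with protamines, small basic proteins that take the place of histones after transition proteins have loosened them. The epididymal lining secretes beta-defensins and protease inhibitors that coat the sperm.

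Each array carried 40628 different probes of 60 bases. A level is the log2 of a probe's processed signal minus the 75th percentile of its array, and a difference is HF75 minus HF5 on that log2 scale. Probes well above background on at least 6 of the 12 arrays were tested, 27013 in all. No probe passed an adjusted p of 0.05 (limma with the week as a block, Benjamini-Hochberg over the 27013 probes, smallest adjusted p = 0.766), that is, 0% of those tested. At an unadjusted p under 0.05 there were 1728 probes where 1350.65 would be expected if no probe differed: 1028 lower at 75 µg (3.81% of the probes tested) and 700 higher (2.59%). Across all probes the median difference was 0.00 and the median standard error 0.35. In 19 probes (0.0703%) every HF75 array lay below every HF5 array, and in 32 (0.118%) every HF75 array lay above. The difference had 1 sign in all 6 weeks in 490 probes that were lower (1.81%) and in 645 that were higher (2.39%). The genes named below therefore lead a ranking in which none passed the test, and their values are given as measurements.

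The differences varied between weeks. Across the tested probes the differences of any 2 weeks, which share no array, correlated between -0.29 (weeks 6 and 15) and 0.32 (weeks 3 and 12), a description over probes that share arrays. The spread of the differences was narrowest at week 18 (SD 0.82) and widest at week 12 (SD 1.54). The HF75 array of week 12 and the HF5 array of week 9 stood apart, with median Spearman correlations of 0.88 and 0.89 with the other 11 arrays, against 0.912 to 0.95 for the rest. They were also the brightest and the dimmest, with 75th percentiles of 1470 and 120 intensity units. Between 53.7% and 79.6% of spots were well above background. No pair shared a slide, and 5 of the 6 pairs were scanned on the same date. All the arrays measured fat: of 14 adipocyte genes, 13 or 14 were well above background on each of the 12 arrays. Fabp4, the fatty acid binding protein of adipocytes, was saturated on all 12 arrays, so its difference was not read.

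The sequences of some leading probes are shown because the probes shared features of sequence. Of the 1028 lower calls 4.96% were probes with a run of alternating G and A, among them Ikzf2 of the 10 leading probes. For this and 4 others, 30 of the 60 bases are shown 5′ to 3′ around the run (capitals), each with its gene and the chromosome that the authors' table gives where it gives one.
Ikzf2, chromosome 1, difference -2.20: tgacattttacagttGAGAGAGAatttgag
Dmrtb1, chromosome 4, difference -2.91: gctgggaatcctGAGAGAGAgccgttcaag
Lifr, chromosome 15, difference -2.32: ctttcagaaagGAGAGAGAGAtacgcccaa
Nrg1, difference -2.64: agcatattgtgGAGAGAGAagtggagacct
Itga1, difference -1.98: ttggGAGAGAGAGAtcaatgccttgtgtga
Another probe for Ikzf2 that lacks the run is shown by the middle 30 of its 60 bases.
Ikzf2, other probe, difference 0.96: tataatttgtccaagatttatttcttctca
Probes that were higher at 75 µg were often rich in A and T. Over all 60 bases the Zfp560 probe held 31.7% G and C and a Ddx3y probe 20%, and their middle stretches are shown. The other Ddx3y probe, of 35% and not higher, is shown beside them, and no base is marked. The stretches show this only in part, as that of Zfp560 is not richer in A and T than that of the other Ddx3y probe.
Zfp560, chromosome 9, difference 1.65: cagtttgttggagtatttagttggtgtagt
Ddx3y, chromosome Y, difference 1.55: agatattagtgaaaactaaaaattttctca
Ddx3y, other probe, difference -0.07: ttggatattgttgattacagtgtgtcaaga

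Of the 10 named genes that were lower at 75 µg, 4 are known from sperm or the epididymis. Prm2, a protamine, had levels of 1.65, -4.35, 2.59, 0.07, -3.70 and 2.51 on the HF5 arrays in the order of the weeks. On the HF75 arrays its levels were -3.49, -4.22, -3.01, -4.12, -5.61 and -4.01. The HF5 arrays of weeks 3, 9, 12 and 18 were high and those of weeks 6 and 15 were low, while all the HF75 arrays were low, so the groups overlapped. The difference was -3.87 ± 0.81 (moderated SE, 6 pairs), negative in 5 of them (adjusted p = 0.766, limma).

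Prm1, the other main protamine of mouse sperm, was measured by 3 probes, with differences of -4.54 ± 1.00, -3.34 ± 0.89 and -2.49 ± 0.75. Its brightest probe read 2.78, -2.85, 3.28, 1.47, -3.77 and 3.71 on the HF5 arrays and -1.34, -3.60, -1.94, -3.68, -2.80 and -2.04 on the HF75 arrays. The same 4 HF5 arrays were high. Tnp1, a transition protein named after its values were seen, differed by -2.68 ± 0.87, and Tnp2, the other transition protein, by -0.58 ± 0.53. Ldhc, the sperm form of lactate dehydrogenase and also named after its values were seen, was too dim to be tested. It was well above background on 5 HF5 arrays and on no HF75 array, which put it at least 18.1-fold higher at 5 µg. Spem1, needed for shaping sperm, read -2.77, -3.41, -3.01, -3.62, -5.01 and -2.96 at 5 µg and -4.52, -4.46, -5.86, -6.27, -5.81 and -5.44 at 75 µg, with a difference of -1.93 ± 0.35 that was negative in 6 of 6 weeks. The groups overlapped only through its low HF5 array of week 15. Of the 12 testis genes listed, 8 were tested and 7 were lower (median -0.67, beside 0.00 over all probes), with Prm1, Prm2 and Tnp1 at an unadjusted p under 0.05, beside 3.81% of all probes lower.

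The 250 bases before the starts of Prm1 and Tnp1 are shown because these genes, on different chromosomes, had the same 4 high arrays. They are RefSeq sequences on build GRCm38.p6, minus strand, 5′ to 3′, with matches to TGANNTCA in capitals, a pattern that reads the same on both strands.
Prm1, chr16:10796824-10797073: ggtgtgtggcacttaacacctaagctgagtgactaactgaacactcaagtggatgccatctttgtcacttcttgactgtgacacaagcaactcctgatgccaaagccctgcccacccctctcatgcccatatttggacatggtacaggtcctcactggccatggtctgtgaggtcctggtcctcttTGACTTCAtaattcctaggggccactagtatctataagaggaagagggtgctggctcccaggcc
Tnp1, chr1:73015900-73016149: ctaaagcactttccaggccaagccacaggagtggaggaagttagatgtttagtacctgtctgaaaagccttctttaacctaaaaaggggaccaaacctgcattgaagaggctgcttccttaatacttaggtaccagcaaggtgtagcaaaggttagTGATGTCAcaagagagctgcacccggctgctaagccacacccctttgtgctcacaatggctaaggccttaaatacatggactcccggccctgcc
Each held 1 match. Both listed starts of Akap4, a protein of the sperm tail, held 1. Prm2, on chromosome 16 as Prm1 is, had the same 4 high arrays but held none, and neither did Tnp2 or either start of Ldhc. Of the 32851 promoter sequences of this length, 11.9% held at least 1. The part of the pattern in the levels was not tested.

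Epididymal genes as a list were lowest at week 6, though not every gene was. Defb28, a beta-defensin, read 1.25, -6.59, 1.88, -2.23, -2.31 and -6.26 at 5 µg and -1.86, -8.22, -1.53, -6.27, -6.71 and -7.55 at 75 µg. The difference was -2.98 ± 0.45 and negative in 6 of 6 weeks, while within each dose the level was highest at week 9 and lowest at week 6, so the groups overlapped. Defb23, another beta-defensin, had a difference of -2.20 ± 0.48, also negative in 6 of 6 weeks. At 75 µg Defb23 was lowest at week 15 (-8.50, against -8.22 at week 6). Of 48 probes named for beta-defensins, 12 were tested, with a median difference of -0.84, and 5 of them were lower at an unadjusted p under 0.05 and 0 higher, beside 3.81% and 2.59% of all probes. In the list of 18 epididymal genes, 8 were tested and 7 were lower (median -0.89), among them Wfdc10, a protease inhibitor homologue, at -1.71 ± 0.52, and Spink8, a Kazal-type inhibitor, at -2.71 ± 1.02. Crisp1, a secreted protein that coats sperm, differed by -1.90, with 3.73 on the HF75 array of week 3 above every HF5 array.

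**Figure D1:**
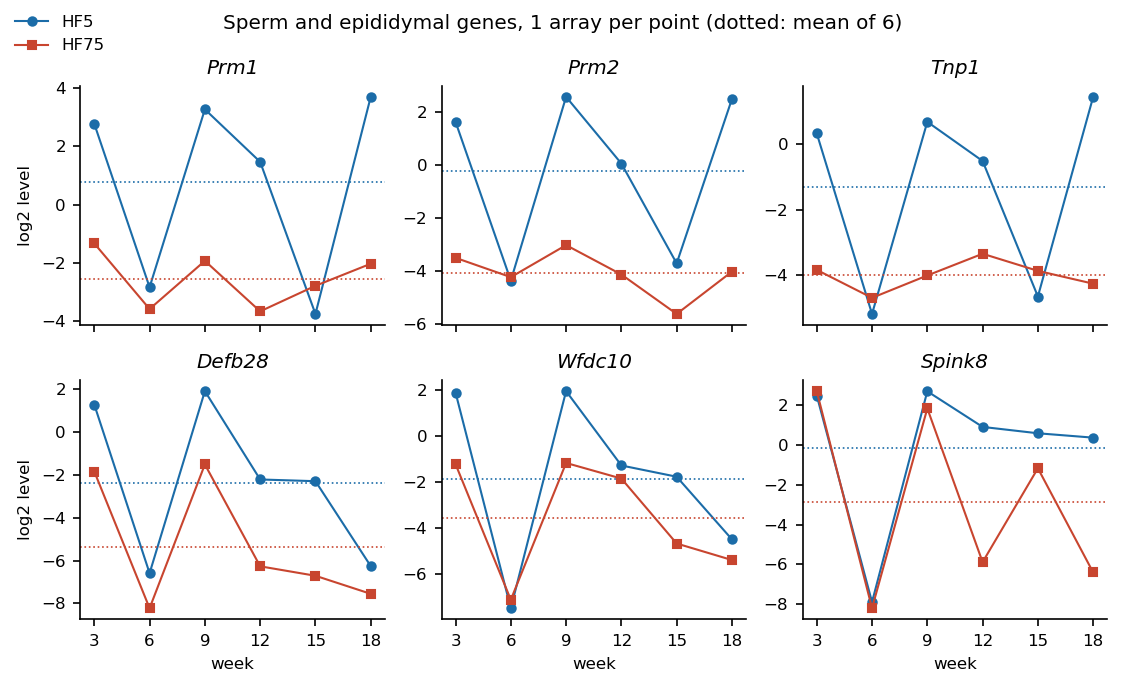
Log2 level (processed signal relative to the 75th percentile of the array) against week for 3 sperm genes (upper row) and 3 epididymal genes (lower row), with 1 point per array, HF5 as circles, HF75 as squares and the mean of 6 arrays dotted. Prm1, Prm2 and Tnp1 were high on the HF5 arrays of weeks 3, 9, 12 and 18 only, and the 3 epididymal genes were lowest at week 6 in both doses, as was Tnp1.

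The summed level of the 18 epididymal genes ran from 0.117 (week 6) to 29.6 (week 9) over the HF5 arrays and from 0.204 to 20.7 over the HF75 arrays, in units of the 75th percentile. That of the 12 testis genes ran from 3.59 to 24.9 and from 1.8 to 4.93. The Leydig cell gene Insl3 differed by -0.32, while Hsd3b6 and Odf1 were well above background on no array. The testis sum ran from 1.19 to 108 in mice given 20 µg (HF20) and from 1.27 to 11.2 in high fat controls without KAL-1 (HFC). Arrays of these 2 groups thus lay on both sides of the HF75 range. In low fat controls (LFC) the testis sum ran from 3.02 to 8.13 and the epididymis sum from 0.404 to 130. The testis list had a median over arrays of -1.02 in HF5, -3.54 in HF75, -2.83 in HF20, -3.12 in HFC and -2.5 in LFC. By this median HF5 was the highest group and HFC lay closer to HF75. In whole tissue, fewer cells of a type and less RNA per cell cannot be told apart, and how much neighbouring tissue each sample held was not tested.

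Probes holding GAGAGAGA formed the second group. There were 94 such probes, all tested, for 93 gene names. Their median difference was -1.46, with 51 (54.3%) lower at an unadjusted p under 0.05 and 0 higher, beside 3.81% lower among all probes. Another 24 probes held GAGGAGGAG, with a median of -1.71, and 16 of them were lower and 0 higher. No tested probe held both, and together these 118 probes gave 67 of the 1028 lower calls. They were named for 117 genes on 19 chromosomes. The pattern was chosen after the leading probes were seen, so these counts are a description without a test.

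Probes with the opposite strand of the run lay near the median of all probes. Of 32 tested probes with TCTCTCTC, the reverse complement, 0 were lower and 1 was higher (median 0.13). Of 15 with CTCCTCCTC, 0 were lower and 2 higher (median 0.13). Among other repeats CACACACA had a median of 0.19 over 54 probes, TGTGTGTG of 0.09 over 99, CAGCAGCAG of -0.04 over 13 and CTGCTGCTG of 0.36 over 21. GAAGAAGAA, a purine run of another order, had a median of -0.35 over 79 probes, 5 of them lower.

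Other probes for the same genes had smaller differences in most cases. For 45 genes with a tested probe that held GAGAGAGA or GAGGAGGAG and another that held neither, the median difference was -1.31 over the first kind and -0.12 over the second, and the first was the lower in 42 of the 45. Sh3bp1 differed by -3.07 ± 0.67 with the GAGGAGGAG probe and by 0.11 ± 0.38 and -0.41 ± 0.65 with its other probes. Ikzf2, the transcription factor Helios, differed by -2.20 ± 0.47 with the GAGAGAGA probe and by 0.96 ± 0.28 with the other. Dmrtb1, a testis transcription factor, gave -2.91 ± 0.70 and 0.02 ± 0.33, and Chrna9, a nicotinic receptor subunit, gave -2.89 and 0.31. In other genes the probes were closer, as in Tgm2, a transglutaminase (-0.97 and -0.82), and Igfbp4, which binds insulin-like growth factors (-0.94 and -0.66). The Dmrtb1 probe read 5.32, 1.18, 0.94, 0.67, 0.86 and 2.91 at 5 µg and 1.15, -1.47, 1.39, -4.20, -0.52 and -1.91 at 75 µg. It was highest on the HF5 array of week 3 and lowest on the HF75 array of week 12.

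The same 2 arrays had the highest and the lowest median of the whole group. The median level of the 94 GAGAGAGA probes was 3.42, 0.89, 0.41, 0.66, -0.09 and 1.69 on the HF5 arrays and 0.54, -0.80, 1.17, -1.95, -1.04 and 0.69 on the HF75 arrays. The weekly median differences were -3.37, -1.45, 0.43, -2.35, -0.83 and -0.92, so week 9 went the other way. Without week 3 the median was -1.11 with 38 probes lower, and without week 12 it was -1.32 with 35 lower. The count was 28 without the week as a block, 82 with arrays weighted by their quality, 30 by a plain paired test and 10 in a fit of all 5 diets, with 0 higher in each. The GAGGAGGAG probes leaned more on week 3: their weekly medians were -4.73, -2.82, -1.56, -2.70, 0.27 and 0.07, and without week 3 there were 6 of 22 lower at an unadjusted p under 0.05, without week 6 there were 8 of 22 and without week 12 there were 7 of 22.

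**Figure D2:**
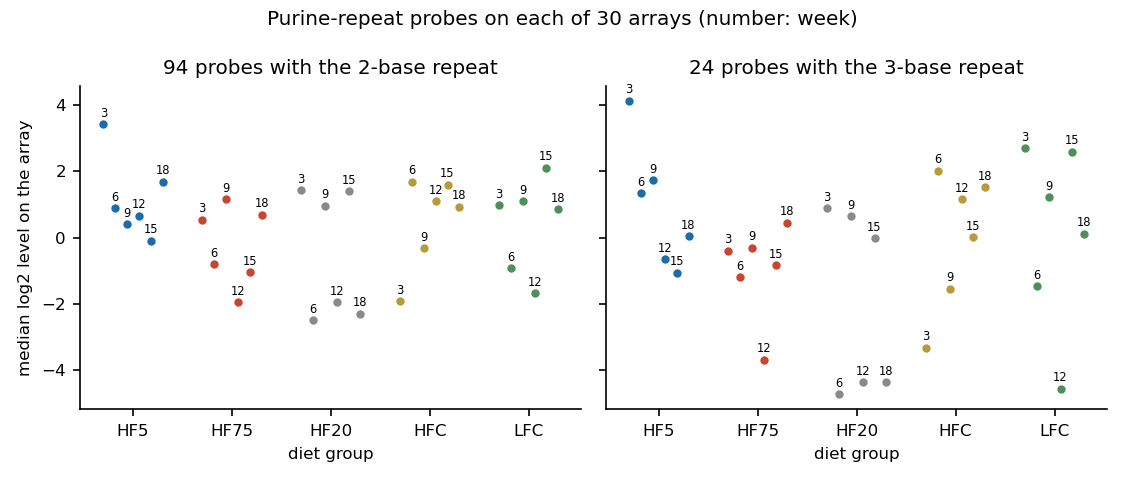
Median log2 level of the 94 probes with the 2-base purine run (left) and of the 24 with the 3-base run (right) on each of 30 arrays, by diet group, with the week printed above each point. The HF5 array of week 3 was the highest of all, and 6 arrays (HF75 week 12, HF20 weeks 6, 12 and 18, HFC week 3 and LFC week 12) were the lowest in both panels.

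The low arrays were also arrays with low immediate early genes, the genes that cells switch on within minutes of a stimulus or of handling. The median level of the immediate early list was 0.67 on the HF75 array of week 12, against 4.92 to 5.38 on the other HF75 arrays and 4.81 to 5.55 on the HF5 arrays. It was 0.99, 0.75 and 0.73 on the HF20 arrays of weeks 6, 12 and 18, 2.43 on the HFC array of week 3 and -0.45 on the LFC array of week 12. The LFC array of week 3 was the exception, with 1.42 for the immediate early list and 0.98 for the GAGAGAGA probes. The part of either in the other was not tested. In the fit of 12 arrays all 15 tested immediate early genes were lower at 75 µg (median -0.82, 0 of them at an unadjusted p under 0.05), and without week 12 the median was -0.05, with 4 higher and 11 lower. Fos, the founding member, read between 4.06 and 5.74 on 11 arrays and -1.71 on the HF75 array of week 12. Its difference was -0.82 with that week and 0.35 without.

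Of the remaining named genes that were lower, Pdcd1, which encodes the checkpoint receptor PD-1 of lymphocytes, had the smallest p. It read 0.58, 0.11, -0.39, -1.45, -1.18 and -0.81 at 5 µg and -3.56, -2.35, -1.86, -4.91, -3.45 and -2.63 at 75 µg. All the HF75 arrays lay below all the HF5 arrays, by -2.60 ± 0.38 on average (adjusted p = 0.766, limma). T cell genes had no common direction: 5 of 9 tested were higher and 4 lower, with a median of 0.07. They were dim, with list medians from -4.2 to -1.62 on the HF5 arrays and from -5 to -1.14 on the HF75 arrays. The weekly medians of their difference ran from 2.82 at week 6 to -2.64 at week 15, so the list says little about T cell content. Fosl2, a partner of Jun in AP-1, differed by -2.56 ± 0.42 with 1 probe and by -0.38 ± 0.71 with its other probe. Cnfn, a protein of the cornified envelope, differed by -1.60 ± 0.34. Atp8b1, a lipid flippase, differed by -2.33 ± 0.50, and its 3 other probes gave -1.14, -1.24 and -0.83.

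The genes that led in the other direction were mostly dim. On the HF5 arrays their 10 probes were well above background in 33 of 60 readings, and on the HF75 arrays in 56 of 60. Zfp560, a zinc finger protein, read -7.26, -6.18, -6.09, -5.88, -5.43 and -6.54 at 5 µg and -5.17, -4.70, -4.65, -4.38, -3.18 and -5.37 at 75 µg. All the HF75 arrays lay above all the HF5 arrays, by 1.65 ± 0.25, but with another background correction (normexp), which moved the median of all probes to -0.14, the difference was -0.32. Gpr50, an orphan relative of the melatonin receptors, differed by 1.51 ± 0.29, and by -0.32 with that correction. Scg5, a secretory granule chaperone, differed by 1.45 ± 0.32 and by -0.12 with it, and Zik1, a zinc finger protein, by 1.08 ± 0.25 and -0.11. Zfp758 was brighter, differed by 1.32 ± 0.30, and was higher in 6 of 6 weeks. Its other probe gave 0.64 ± 0.26.

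Other leading genes had probes that did not share the difference. Sft2d3, a protein of vesicle transport, differed by 1.72 ± 0.33 with 1 probe and by -0.21 ± 0.27 and -0.18 ± 0.29 with its other probes. Pcbp1, a poly(C) binding protein, differed by 1.43 ± 0.33 with a probe of 23.3% G and C and by 0.37 ± 0.33 with another of 30%. Ddx3y, an RNA helicase of the Y chromosome, read -1.29, -3.29, -3.81, -2.68, -1.06 and -2.14 at 5 µg and -0.57, -2.20, -1.53, -0.88, 0.85 and -0.65 at 75 µg with a probe of 20% G and C. That probe differed by 1.55 ± 0.28, higher in 6 of 6 weeks, and the other Ddx3y probe, of 35% G and C, by -0.07 ± 0.26. Uty, a histone demethylase relative of the Y chromosome named after its values were seen, was well above background on 1 HF5 array and on 6 HF75 arrays with a probe of 28.3% G and C, and its measured difference of 1.54 ± 0.37 was against a group near background. Of the 10 tested probes of the Y chromosome 5 were higher and 5 lower (median 0.05). Mmd2, a membrane protein of the progestin and adipoQ receptor family, differed by 1.88 ± 0.39, and Rai2, a retinoic acid induced gene, by 1.42 ± 0.32. Each was well above background on only 2 HF5 arrays.

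**Figure D3:**
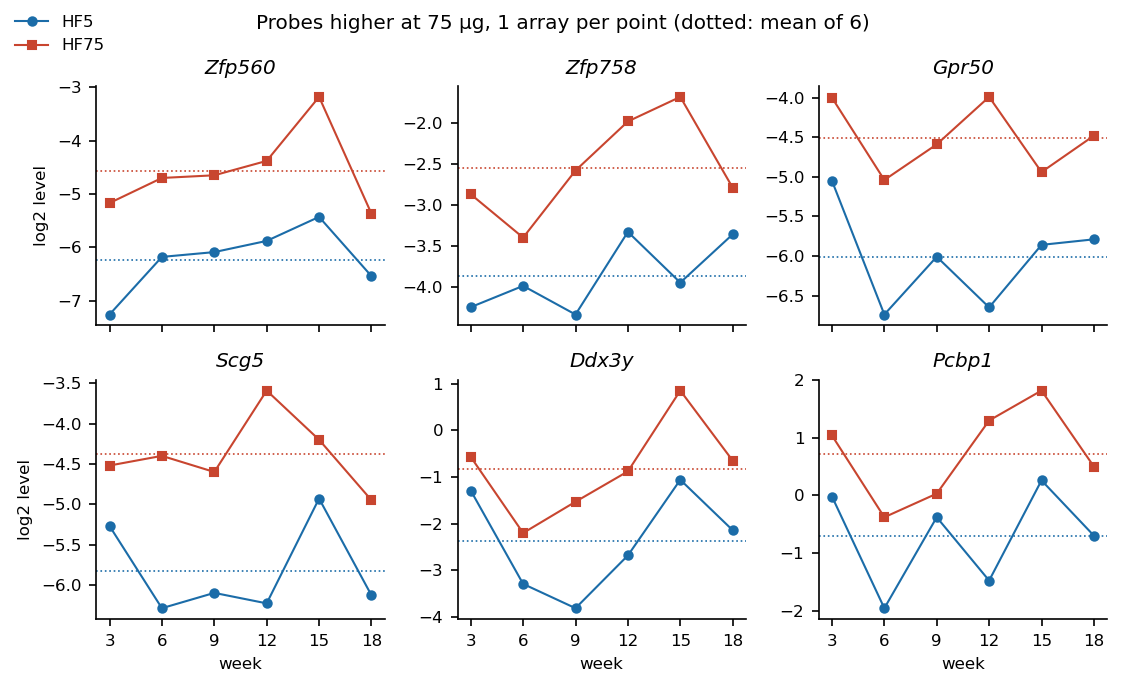
Log2 level against week for 6 of the 10 leading probes that were higher at 75 µg, with 1 point per array, HF5 as circles, HF75 as squares and the mean of 6 arrays dotted. The HF75 line lay above the HF5 line in each of the 6 weeks in all 6 panels, at levels far below the 75th percentile of the array (0) for Zfp560, Gpr50 and Scg5.

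Zinc finger genes recurred among these probes. Of 541 probes with such names 416 were tested, and 267 (64.2%) were higher at 75 µg, beside 50.2% of all probes. Their median difference was 0.17, with 54 (13%) higher at an unadjusted p under 0.05, beside 2.59% of all probes, and 5 (1.2%) lower. With the normexp background correction the median was -0.15, beside -0.14 for all probes, with 2 probes higher and 5 lower. Among the 286 probes well above background on every array 24 were higher and 5 lower (median 0.10). The family was read by probes of 40% G and C at the median, at a median level of -2.26.

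Base composition went with the direction of the unadjusted calls. Among 338 tested probes of up to 30% G and C, 12.1% were higher at an unadjusted p under 0.05 and 0.888% lower. Among 331 probes of over 55%, 0.302% were higher and 6.34% lower. The share that was higher decreased through every step between, from 5.12% of probes above 30 and up to 35% to 0.839% of those above 50 and up to 55%. The median G and C content was 36.7% in the probes that were higher, 45% in those that were lower and 43.3% in all. The weeks were unlike in this: the median difference of the lowest and of the highest step was 0.27 and 0.09 at week 3, 0.07 and 0.16 at week 6, -0.30 and -0.59 at week 9, 0.44 and 0.40 at week 12, 0.71 and 0.10 at week 15, and 0.39 and -0.30 at week 18. For all probes of up to 35% G and C together there were 293 higher and 78 lower (median 0.14), against 118 and 58 with normexp (median -0.03, beside -0.14 for all probes) and 292 and 207 without the filter on dim probes (median -0.02, beside -0.07). From the lowest step to the highest, the zinc finger probes had medians of 0.40, 0.38, 0.31, 0.08, 0.08, -0.13 and -0.12. The other probes had medians of 0.25, 0.12, 0.04, -0.03, -0.09, -0.10 and -0.05, so the family was not higher above 50%. The lowest step held 9 zinc finger probes and the highest 5. The part of base composition in the differences of single genes was not tested.

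**Figure D4:**
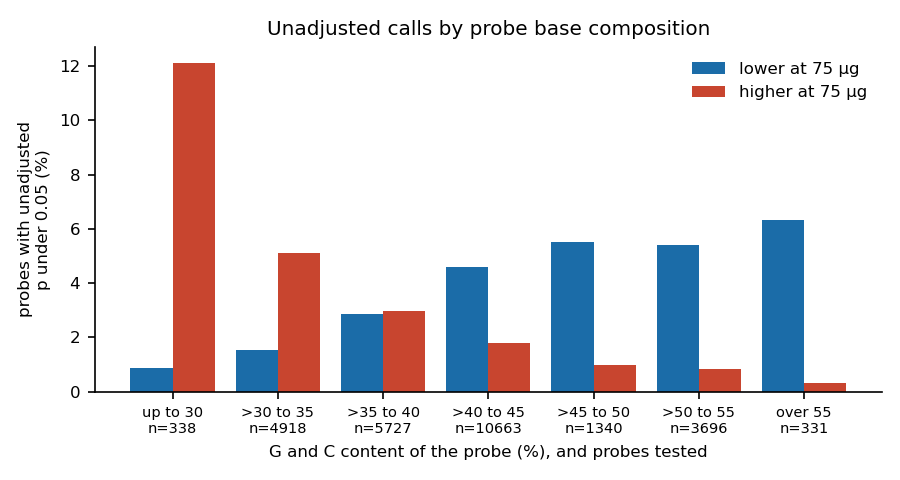
Percent of tested probes with an unadjusted p under 0.05 that were lower (blue) or higher (red) at 75 µg, by the G and C content of the probe in percent, with the number of probes tested under each pair of bars. From the lowest to the highest step the higher calls went from 12.1% to 0.302% and the lower calls from 0.888% to 6.34%.

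Lists of lipid metabolism and fuel oxidation had medians above 0 that rested largely on week 12. Of 16 tested genes of fatty acid synthesis 15 were higher at 75 µg (median 0.76), but 0 at an unadjusted p under 0.05. Elovl6, which lengthens fatty acids, differed by 0.77 ± 0.34, Slc25a1, the citrate carrier, by 1.17 ± 0.63, and Acaca, acetyl-CoA carboxylase, by 0.80 ± 0.74. The weekly medians of the list were 1.29, -1.22, 0.17, 2.85, 0.63 and -0.53, and without week 12 the median was 0.04, with 11 higher and 5 lower. Branched chain amino acid breakdown (13 of 14 higher, median 0.52), fatty acid oxidation (13 of 14, 0.47) and oxidative phosphorylation (14 of 16, 0.26) were likewise highest at week 12. Without week 12 their medians were 0.04, 0.15 and 0.04, with 10 of 14, 11 of 14 and 8 of 16 genes higher. Their medians at week 3 were 1.02, 0.82 and 0.5. Of 13 lipolysis and lipid droplet genes 10 were higher (median 0.56), and without week 12 there were 5 higher and 8 lower (median -0.20). In these lists Dbt, a subunit of the branched chain ketoacid dehydrogenase, differed by 1.14 ± 0.59 and Sdhb, of succinate dehydrogenase, by 0.91 ± 0.51.

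Genes of adipocyte identity were split, with 10 higher and 4 lower (median 0.30, and -0.11 without week 12). Adiponectin (Adipoq) read 5.33, 5.37, 5.62, 3.21, 3.02 and 6.81 at 5 µg and 6.52, 2.79, 5.32, 5.47, 4.08 and 6.63 at 75 µg, an overlap over nearly the whole range. Its difference was 0.24 ± 0.56, and -0.16 without week 12, with 4 of the 12 readings saturated. Lipoprotein lipase (Lpl) was saturated on 1 HF5 and 2 HF75 arrays, with a measured difference of 0.65 ± 0.36. Carbonic anhydrase 3 (Car3) was saturated on 3 arrays of each dose, so its difference was not read. Car3 and the saturated Fabp4 are still counted in the split and the median of the adipocyte list. Among insulin signalling genes Irs1 and Irs2, substrates of the insulin receptor, went apart, with differences of 0.91 ± 0.32 and -0.96 ± 0.48, and the glucose transporter Slc2a4 differed by 0.71 ± 0.67 with week 12 and by -0.02 without. The list of insulin signalling had a median of 0.05.

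Ucp1, the uncoupling protein of thermogenic fat, had a difference of -1.40 ± 0.42, negative in 6 of 6 weeks. It read -2.39, -0.46, -3.32, -2.88, -2.44 and -3.09 at 5 µg and -2.91, -2.94, -4.74, -6.01, -2.92 and -3.45 at 75 µg. In its list 6 of 9 thermogenic genes were higher and 3 lower (median 0.07). Without week 12 there were 3 higher and 6 lower (median -0.08). In cholesterol synthesis Cyp51, lanosterol demethylase, differed by 1.07 ± 0.36 and was higher in 6 of 6 weeks, and Srebf2, the regulator of the pathway, differed by -0.76 ± 0.30 and was lower in 6 of 6. The clock output factors Tef and Hlf differed by 0.85 ± 0.34 and 0.91 ± 0.37. In the clock list 9 of 15 genes were higher and 6 lower (median 0.53, and 0.46 without week 12). At an unadjusted p under 0.05, 3 were higher, beside 2.59% of all probes, and 0 lower, and without week 12, 2 were higher. The weekly medians of the clock list were 0.71, 0.44, -0.01, -0.46, 0.09 and -0.08.

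Matrix, endothelial and Wnt genes were on the lower side. All 18 extracellular matrix genes were lower (median -0.48), 1 of them at an unadjusted p under 0.05, beside 3.81% of all probes lower, and without week 12 there were 14 lower and 4 higher (median -0.19). Timp1, an inhibitor of matrix proteases, differed by -1.30 ± 0.46 and Mmp14, a membrane-bound matrix protease, by -0.63 ± 0.30. All 10 endothelial genes were lower (median -0.57), 3 of them at an unadjusted p under 0.05, beside the same 3.81%, and without week 12 there were 8 lower and 2 higher (median -0.28), 0 of them at that p. Pecam1 and Tie1, markers of vessel lining, differed by -1.01 ± 0.39 and -0.95 ± 0.36. Of 15 Wnt pathway genes 12 were lower (median -0.62, and -0.26 without week 12). Lrp5, a Wnt co-receptor, read 1.97, 2.71, 3.47, 2, 2.31 and 1.43 at 5 µg and 1.64, 1.31, 0.85, 0.44, 1.12 and 1.33 at 75 µg, with a difference of -1.20 ± 0.36, negative in 6 of 6 weeks. Wnt5a, a ligand, differed by -1.98 ± 0.71.

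Immune lists had no common direction. Of 19 macrophage and inflammation genes 8 were higher and 11 lower (median -0.44, and 0.00 without week 12). Itgax, a marker of inflammatory macrophages, differed by -1.24 ± 0.66 and Il1b, a cytokine, by -1.33 ± 0.82. Of 13 genes of lipid associated macrophages 11 were lower (median -0.36), with Trem2, their lipid receptor, at -1.12 ± 0.41. Lymphocyte and neutrophil genes swung between weeks: the B cell list had weekly medians of 2.98 at week 6 and -3.08 at week 15, and the neutrophil list 3.25 and -2.43. Slc4a1, the anion exchanger of red cells, had a difference of 0.96 ± 0.34, positive in 6 of 6 weeks, in a blood list with 3 genes higher and 4 lower (median -0.02).

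**Figure D5:**
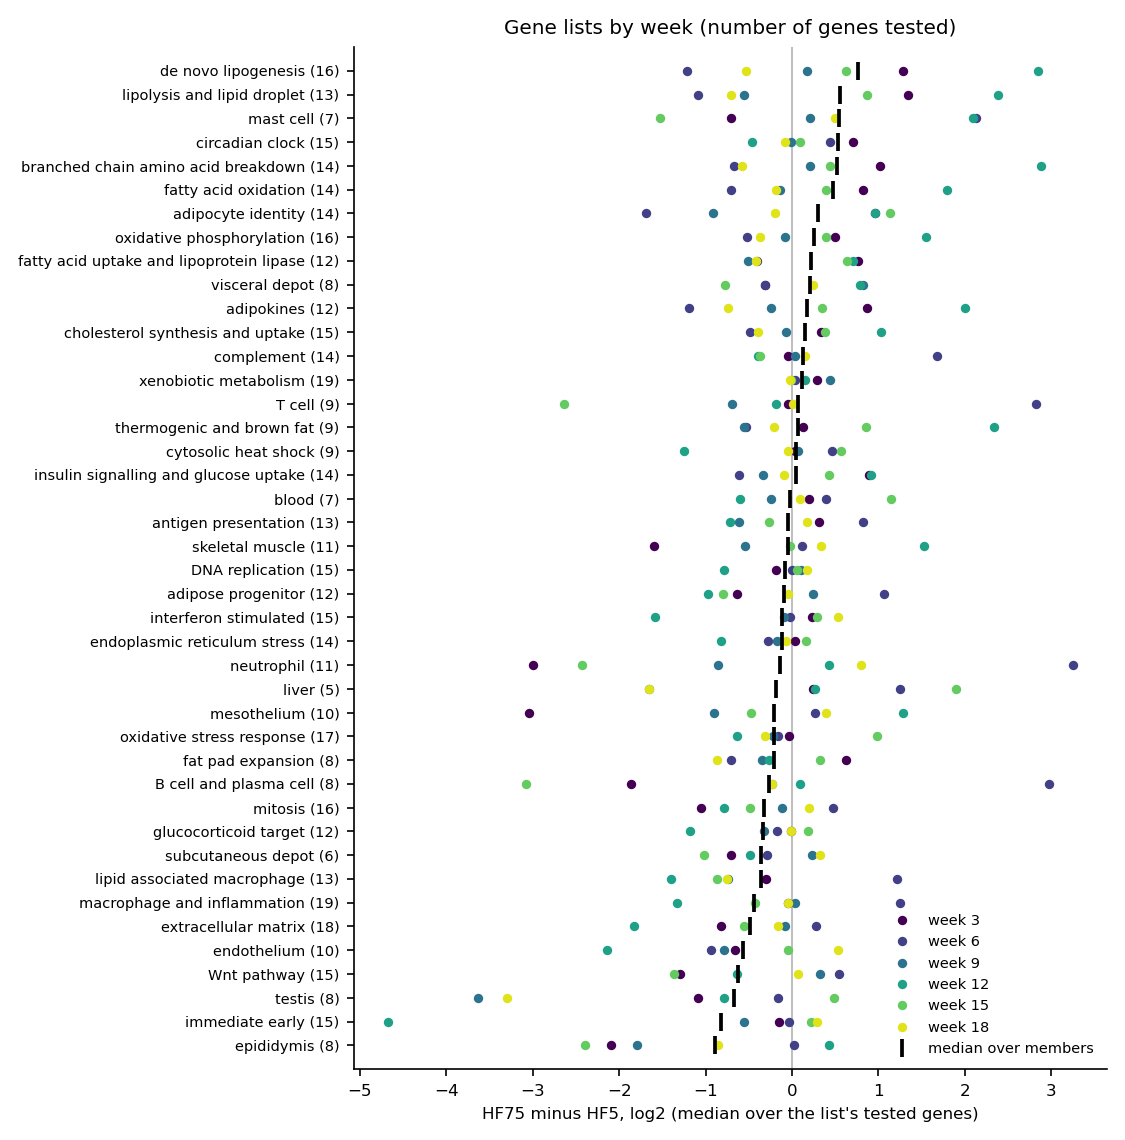
Difference HF75 minus HF5 on the log2 scale for 42 gene lists, each point the median over the tested genes of a list (their number in parentheses) in 1 week and the black bar the median of the fitted differences over those genes. At week 12 the immediate early list lay at -4.67 and fatty acid synthesis (de novo lipogenesis) at 2.85, and most lists had weeks on both sides of 0.

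Both week 6 arrays differed from the rest in genes of mesothelium and of the visceral depot. Wt1, a transcription factor of mesothelium and visceral fat, read -7.79 and -7.57 at week 6 and between -0.34 and 2.36 on the other 10 arrays. The mesothelium list had medians of -5.57 and -5.96 at week 6, with 5 of its 10 genes well above background on each, and from -2.63 to 0.96 elsewhere. Upk3b and Upk1b, membrane proteins of mesothelium and urothelium, and Muc16, a mucin of mesothelium, read between -8.24 and -7.49 there, as low as Wt1. The visceral depot list had medians of -6.87 and -6.77, and the subcutaneous depot list -0.76 and -0.63, within its range elsewhere (-1.77 to -0.52). The epididymal list was lowest on the same arrays. The median difference between doses at week 6 was 0.27 for mesothelium and -0.31 for the visceral depot. Without week 6, 518 probes were higher and 1104 lower at an unadjusted p under 0.05, and again none passed.

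HF20 arrays placed the middle dose. In a fit of all 18 arrays of the 3 doses, with the week as a block and log2 of the dose as a number, 0 of 28992 probes passed (smallest adjusted p = 0.69, limma), with 945 probes higher and 954 lower at an unadjusted p under 0.05. Zfp560 had a slope of 0.42 ± 0.08 per doubling of the dose, and Zfp758, Scg5, Sft2d3 and Zfp72 had slopes of 0.34 to 0.44 (adjusted p = 0.69 in each, limma). In the other direction Calu, a calcium binding protein of the endoplasmic reticulum, had a slope of -0.33 ± 0.07, Pdcd1 -0.67 ± 0.15, the ubiquitin ligase gene Rnf20 -0.24 ± 0.06, Rnf214 -0.37 ± 0.09 and Ptrf, a protein of caveolae, -0.33 ± 0.08 (adjusted p from 0.751 to 0.755, limma). These slopes and the differences between the outer doses share 12 arrays. The mean level of Pdcd1 was -0.52 at 5 µg, -3.06 at 20 µg and -3.13 at 75 µg, with the middle dose close to the highest. Over the HF20 arrays Pdcd1 ranged from -4.80 to -0.93, which reached into the HF5 range. The HF20 arrays of weeks 6, 12 and 18 were among those with low immediate early genes. The mean level of the Ddx3y probe of 20% G and C was -2.38, -2.42 and -0.83, with the middle dose close to the lowest. Prm2 ranged from -8.84 to 4.80 over the 6 HF20 arrays, wider than over either outer dose.

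A change of the difference with time was sought by its slope over the weeks. 0 of 27013 probes passed (smallest adjusted p = 0.86, limma), with 441 positive and 277 negative slopes at an unadjusted p under 0.05, where 1350.65 would be expected if no probe had a slope. The probes with the smallest p were Cldn8, a tight junction protein, at -0.40 ± 0.06 log2 units per week, Ptgfr, the prostaglandin F receptor, at -0.35 ± 0.06, and Serpina3f, Gramd3 and Loxl4 at -0.36, -0.30 and -0.32. In the other direction were Hnt, a neural adhesion protein, at 0.43 ± 0.06, Hmx2, a homeobox factor, at 0.34 ± 0.05, and Olfr1199, Jph4 and Defa20 at 0.51, 0.52 and 0.48 (adjusted p from 0.86 to 1 over these 10, limma). Of the 20 named genes Sh3bp1 had the slope of the smallest p, 0.33 ± 0.07 per week with its GAGGAGGAG probe, its difference being widest at week 3.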

How the data were processed

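RNA of mouse epididymal fat was labelled with Cy3 and hybridised to Agilent 1-colour arrays. The deposited scanner files held intensities per spot from Feature Extraction, version 10.5.1.1 per the file headers and 9.1 in the submitters' processing notes, and a table by the authors held log2 values relative to the low fat array of the same time point, normalized in GeneSpring GX per the methods. The files of week 9 had signals of 3 significant digits and 5 gene names turned into dates, so gene names were taken from another file. Control spots and outlier spots were left out. gProcessedSignal was put on the log2 scale, the 75th percentile of each array was subtracted, and spots of a probe were averaged. Probes well above background on at least 6 arrays of the fit were tested with limma 3.58.1 (R 4.3.3), with week and dose as terms, and p-values were adjusted over all probes tested. Week numbers paired the arrays because the labels give 1 array per dose and week. Same-week arrays deviated together in 5 of 6 weeks (correlations 0.22 to 0.32, and -0.10 at week 12). Saturated spots were kept. A fold against a group nowhere well above background was a lower bound, computed from each array's lowest signal well above background.

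Genes were named by rule: the 10 smallest p in each direction among probes with a gene symbol and values in all pairs, since none passed, from each list the 2 smallest p and the first 2 genes tested, and 5 per direction for the trend and the slope. A list gene was read by its brightest probe. Genes outside the rule (Tnp1, Tnp2, Ldhc, Akap4, Insl3, Hsd3b6, Odf1, Upk3b, Upk1b, Muc16, Uty, Dmrtb1, Lifr, Nrg1, Itga1, Chrna9, Tgm2, Igfbp4 and Fabp4) were named after their values were seen. The members and lists were chosen with earlier results of these data known, and the sequence patterns, gene families and base composition after the values were seen. Of 40628 probes, 28136 (69.3%) had an accession matched to RefSeq, and names are those of the array. Alternatives were quantile and median scaling, normexp with an offset of 50, other filters, array weights, the authors' table, no block, each week left out, weeks scanned on 1 date, all diets in 1 fit and a plain paired test over weeks, which stood in for the methods' t-test between replicates. The fit was tested on simulated data. The 9 arrays of other time points were not used here.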

Additional observations from a re-analysis of the deposited data

Results flagged for a closer look

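Over 57 named genes and 42 lists in both groups of 6 arrays, 198 groups in all, 23 (11.6%) had an array whose gap to the nearest other exceeded Dixon's critical share of the group's range, where chance gives about 1 in 20 groups.

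At week 12 the HF75 array was lowest for Fos (-1.71), Fosb (-3.37) and Il1b (-4.11), and for the medians of the immediate early list (0.67) and the interferon stimulated list (-1.51). At week 6 the HF5 array was lowest for Msln (-4.26), Wt1 (-7.79), Spink8 (-7.89) and the medians of the mesothelium list (-5.57) and the visceral depot list (-6.87), and highest for Ucp1 (-0.46). The HF75 array of week 6 was lowest for Wt1 (-7.57) and for the medians of the visceral depot list (-6.77), the epididymis list (-7.63) and the adipocyte identity list (3.69).

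At week 18 the HF5 array was highest for Lpl (6.76) and for the medians of fat pad expansion (3.80), branched chain amino acid breakdown (1.28) and cholesterol synthesis (-0.38), and lowest for Mmp14 (2.25). The HF5 array of week 9, the dimmest, was highest for Irs1 (1.72) and Trem2 (5.29). The HF75 array of week 15 was highest for the liver list (-1.83).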

How the results depend on the processing

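No probe passed for the difference between doses under any alternative, leaving out each week in turn included (0 to 0 probes, the weeks scanned on 1 date being the fit without week 6), and the lowest adjusted p was 0.0621, without week 9. The dose trend likewise gave 0 under its alternatives (0 to 0 without single weeks), and the slope over weeks 0, except 73 probes with array weights. Without the replicate block 0 probes passed for the difference and 0 for the trend. With normexp 4 genes changed sign: Zfp560 (-0.32), Gpr50 (-0.32), Scg5 (-0.12) and Zik1 (-0.11). Without week 12 another 4 did: Adipoq (-0.16 to 0.81 over single weeks left out), Fasn (-0.01 to 0.85), Slc2a4 (-0.02 to 1.02) and Fos (-1.15 to 0.35). The other 980 of 988 values of the 57 named genes kept their sign, and none passed (lowest adjusted p = 0.262, with array weights). The plain paired test that stood in for the methods' t-test gave 840 probes higher and 688 lower before Benjamini-Hochberg adjustment and 0 after it. The share of lower probes among those at an unadjusted p under 0.05 was 59.5%, 51.2% with quantile scaling, 68.9% without the filter and 47.3% without week 9. Of the week slopes at that p, 38.6% were negative, 24.9% with median scaling, 18% with normexp, and from 18.7% (without week 6) to 74.1% (without week 3) with single weeks left out. The GAGAGAGA probes had medians of -2.12 to -1.11 over alternatives chosen after seeing the data. Each dose and week had 1 array, a difference had a median standard error of 0.35, and the low signal of the week 9 array at 5 µg limits dim probes.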
